A study of Rattus norvegicus with 3 samples.

Results

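Integrins are the cell surface receptors that hold cells and growing axons to the extracellular matrix, and laminins are among their main ligands. The genes described here are the 42 entries, of 26353 in the deposited table, whose symbols name an integrin alpha subunit (18 genes), an integrin beta subunit (8), a laminin chain (11), or 1 of 5 matrix partners of these proteins: dystroglycan (Dag1), fibronectin (Fn1, listed as FN1), the nidogens Nid1 and Nid2, and agrin (Agrn). The rule reads symbols and no measured value. All values come from 3 libraries of commissural neurons of the rat spinal cord, isolated at embryonic day 13 and kept for 2 days in culture, with no treatment and no other group. The neurons were dissociated, and the labels give no strain, number of embryos or culture coating. Levels are the authors' FPKM, fragments mapped to a gene, scaled by transcript length and by library size, so they can be compared between genes of different length.

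An integrin is a heterodimer of 1 alpha and 1 beta subunit, and the pairing decides which ligand is bound: some pairs bind laminin, some the RGD sequence of fibronectin and vitronectin, some collagen, and some the adhesion molecules of leukocytes. Laminins are cross-shaped trimers of an alpha, a beta and a gamma chain that form the sheet of a basement membrane together with nidogen, type IV collagen and heparan sulfate proteoglycans such as agrin. Dystroglycan is a further receptor for laminin and agrin, and in the developing spinal cord it also binds Slit and organises the basement membrane that commissural axons grow along.

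The 3 libraries are called 1, 2 and 3 by the replicate numbers in the labels. Whether each came from its own culture or animals is not in the labels, so the spread of these 3 samples could be technical. The error behind each p-value draws on a gene's own spread over them and on that of all other entries fitted. The labelled cell type was checked against its markers: Tubb3, Stmn2, Dcx, Map2, Robo3 and Dcc lay above 1 FPKM in 6 of 6 cases, as did 6 of 6 genes of neural progenitors. The progenitor genes Fabp7 and Vim, at 564 ± 106 and 398 ± 27.0 FPKM, lay above Map2 at 193, Robo3 at 104 and Dcc at 62.6 FPKM. Tubb3 at 960 FPKM lay above both, and Stmn2 at 435 and Dcx at 423 FPKM lay between them. The remaining progenitor genes were lower than every neuronal marker listed, with means from 3.15 (Nes) to 39.3 FPKM (Sox2). FPKM keeps no record of the depth of a library, and no counting interval can be given. Summed FPKM over all entries came to 25032147, 19897930 and 26236642 for libraries 1 to 3, most of it held by entries above 10000 FPKM, so an FPKM here is a relative and not an absolute unit.

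Of the 42 genes, 15 lay above 1 FPKM, 24 did not, and 3 were listed at 0 in every library and could not be tested. The test was limma's one-sided moderated test on log2(FPKM + 0.1), with Benjamini-Hochberg adjustment over all 17611 entries above 0 in at least 1 library and a threshold of 0.05. In the same test 63.7% of the 17611 entries tested lay above 1 FPKM. With no filter, so that entries at 0 were kept, 42.5% of all 26353 entries and 14 of the 42 genes did. The median level of the 42 genes, the 3 at 0 included, was 0.567 FPKM. Over the entries tested, which leave out those at 0 in every library, it was 4.81 FPKM, so these medians are not of like sets. The genes above 1 FPKM were 5 of 18 alpha subunits, 3 of 8 beta subunits, 3 of 11 laminin chains and 4 of the 5 partner genes. Agrn, Itgb1, Dag1 and Fn1 stood far above all other members, at means from 20.5 to 53.3 FPKM, and the next gene in order was Itgal at 6.85 FPKM.

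Among the beta subunits a single gene made up nearly all of the RNA. Itgb1, the common partner of most alpha subunits outside the blood, had 35.74, 36.87 and 33.33 FPKM in libraries 1, 2 and 3 (mean 35.3 ± 1.81, SD, n = 3). Itgb2, the beta subunit of the leukocyte integrins, had 1.36, 1.98 and 1.54 FPKM. Itgb8, which joins Itgav in a receptor that activates latent TGF-beta, had 1.19, 1.67 and 1.51 FPKM. The lowest value of Itgb1 was thus far above the highest value of either, and Itgb2 and Itgb8 overlapped. Itgb8 lay above 1 FPKM with all libraries (adjusted p = 0.00637 by limma with Benjamini-Hochberg) but not without library 2 (adjusted p = 0.0523). Itgb5, another partner of Itgav, had 0.68, 1.34 and 0.82 FPKM and did not pass, with library 2 on the other side of 1 FPKM from the remaining libraries. Itgb3, the beta subunit shared by the platelet integrin and a vitronectin receptor, ranged from 0.23 to 0.32 FPKM. Itgb4, the hemidesmosome subunit, ranged from 0.03 to 0.09 FPKM, and the epithelial Itgb6 and the gut-homing Itgb7 were listed at 0 in every library.

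Within each library, every entry was also compared with Itgb1 as a log2 ratio (limma, two-sided, Benjamini-Hochberg adjustment over 17610 entries). All 5 other beta subunits that could be tested were lower, and so was Dag1, which makes 6 of 6; 84.8% of all entries were lower than Itgb1 and 96.2% differed from it in either direction, so this count is no feature of the family. Itgb1 exceeded Itgb2 by 20.7-fold (95% interval 16.6 to 25.9) and Itgb8 by 22.9-fold (18.2 to 28.9), in 3 of 3 libraries each and on the log2(FPKM + 0.1) scale, which understates the folds of low genes and is used for every fold given here. Itgb1 exceeded Dag1 by 1.37-fold (1.24 to 1.52, adjusted p = 3.88e-05 by limma with Benjamini-Hochberg, seen in 3 of 3 libraries), which did not pass a test against a margin of 1.5-fold.

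The alpha subunits were far lower than Itgb1, and their RNA was spread over several genes. The 3 alpha subunits grouped here as laminin-binding behaved differently from each other. Itga1 and Itga2, which also form laminin receptors, are given below with the collagen receptors. Itga3 had 7.33, 5.58 and 6.79 FPKM (mean 6.57 ± 0.896), Itga6 had 2.19, 2.18 and 2.19 FPKM, and Itga7, which is best known from muscle, had 0.13, 0.12 and 0.14 FPKM. The 3 ranges did not overlap, and Itga6 had nearly the same value in each library while Itga3 was lowest in library 2. Itga3 exceeded Itga6 by 2.90-fold (95% interval 2.49 to 3.37, adjusted p = 3.16e-07 by limma with Benjamini-Hochberg, seen in 3 of 3 libraries), and Itga6 exceeded Itga7 by 9.95-fold (7.53 to 13.2). Of all entries, 56.7% were higher than Itga6 and 38.2% lower.

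Of the alpha subunits whose integrins recognise RGD, only Itgav lay above 1 FPKM. Itgav, which joins the largest choice of beta subunits, had 3.38, 3.27 and 3.23 FPKM. Itga5, the alpha subunit of the main fibronectin receptor, had 0.62, 0.88 and 0.99 FPKM, and Itga2b of platelets 0.46, 0.20 and 0.58. Itga8 ranged from 0.08 to 0.20 FPKM. Itgav was thus higher than these 3 in every library, and it exceeded Itga5 by 3.70-fold (2.82 to 4.86, adjusted p = 7.66e-07 by limma with Benjamini-Hochberg). Against Itgav, 2 of the 16 other alpha subunits tested were higher, Itgal and Itga3, and 14 were lower, where 52.0% of all entries were higher and 42.5% lower. Itgav exceeded Itga6 by 1.48-fold (1.24 to 1.78, adjusted p = 6.48e-04 by limma with Benjamini-Hochberg, seen in 3 of 3 libraries), which likewise did not pass against a margin of 1.5-fold.

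Itga9 and Itga4 form a small subfamily that binds tenascin, osteopontin and VCAM, and Itga4 also fibronectin. Itga9 had 0.96, 1.09 and 0.73 FPKM and Itga4 0.12, 0.21 and 0.22 FPKM, and neither passed. Itga9 and Itga5 could not be told apart at this spread: Itga9 was higher in libraries 1 and 2 and lower in library 3, with a ratio of 1.11 (95% interval 0.765 to 1.61, adjusted p = 0.599 by limma with Benjamini-Hochberg). Itga4 and Itga8 were below Itga5 in 3 of 3 libraries and passed the same test, which 29.0% of all entries did in that direction, 64.3% in the other and 93.3% in either. All 4 alpha subunits of the collagen receptors were low: Itga2 ranged from 0.13 to 0.24 FPKM, Itga1 from 0.03 to 0.14, Itga11 from 0.05 to 0.08, and Itga10 was listed at 0 in every library. In the RefSeq gene table of assembly GRCr8 the gene Pelo overlaps Itga1, and Pelo had 12.48, 16.51 and 13.39 FPKM beside these low values of Itga1.

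**Figure D1:**
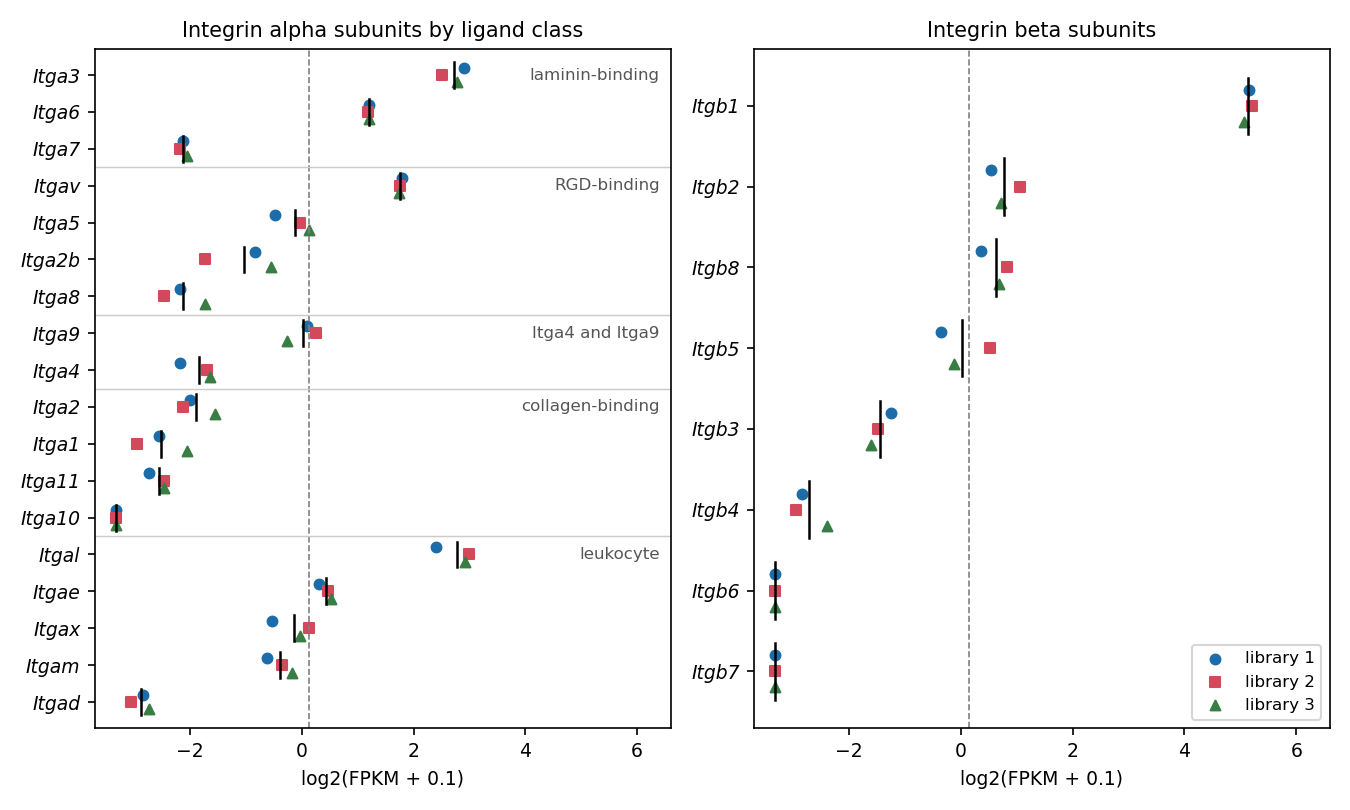
Level of every integrin subunit in each library as log2(FPKM + 0.1), alpha subunits at left grouped by ligand and beta subunits at right. Points are libraries, the short vertical line is the mean of the 3, and the dashed line marks 1 FPKM; Itgb1 stands apart at 33.33 to 36.87 FPKM, and 5 alpha subunits lay above 1 FPKM in the test.

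The integrins of leukocytes are known from blood cells and from macrophages such as microglia. Itgal, the alpha subunit of the receptor for ICAM molecules, had 5.16, 7.90 and 7.49 FPKM (mean 6.85 ± 1.48), a range that overlapped that of Itga3. Its only known partner, Itgb2, was lower in each library, at the values given above. Itgax had 0.59, 0.99 and 0.88 FPKM and Itgam 0.55, 0.68 and 0.79 FPKM, and both stayed below 1 FPKM; Itgad ranged from 0.02 to 0.05. Itgal, Itgb2, Itgax and Itgam were each lowest in library 1 and Itgad in library 2. Outside the leukocyte integrins, Itgb8, Itgb5, Itga5 and Nid1 were also lowest in library 1, while Itga3 and Lamc1 were lowest in library 2. Of the 11662 entries with a mean of at least 1 FPKM, 42.9% were lowest in library 1, 21.5% in library 2 and 34.7% in library 3. Itgal exceeded Itgav by 2.01-fold (95% interval 1.63 to 2.49, adjusted p = 7.15e-05 by limma with Benjamini-Hochberg, seen in 3 of 3 libraries).

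Of 6 macrophage markers, 5 were likewise lowest in library 1. The 6 markers summed to 12.0, 19.6 and 18.1 FPKM for libraries 1 to 3, and 3 of the 6 lay above 1 FPKM. Aif1 had 5.08, 7.38 and 7.82 FPKM, Tyrobp 4.13, 7.64 and 5.59, and Csf1r 1.16, 2.14 and 2.15. Cd68 ranged from 0.87 to 1.61 FPKM and Ptprc, which all leukocytes carry, from 0.55 to 0.83. Cx3cr1, the lowest of the list at 0.22, 0.35 and 0.15 FPKM, was lowest in library 3 instead, and no marker of the list was at 0. The part of macrophages in the levels of Itgal and Itgb2 was not tested, and in RNA of whole cultures fewer cells of a type and less RNA per cell cannot be told apart. The kindlin of blood cells, Fermt3, had 1.34, 1.79 and 1.6 FPKM, again lowest in library 1. Of 4 platelet markers only Gp1bb lay above 1 FPKM, at 32.19, 30.05 and 30.85, while Pf4 ranged from 0.28 to 0.88, Gp9 from 0 to 0.09 and Ppbp was listed at 0.

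Itgae, the partner of Itgb7 on T cells of epithelia, had 1.14, 1.28 and 1.33 FPKM and passed narrowly (adjusted p = 0.0416 by limma with Benjamini-Hochberg). The call was lost without library 2 (adjusted p = 0.0786), without library 3 (0.180), with libraries rescaled to a common sum (0.129) and with no filter on entries (0.0868). Its only known partner Itgb7 was listed at 0. In the RefSeq gene table of assembly GRCr8 the kinase gene Haspin, which the deposited table calls Gsg2, overlaps Itgae. Haspin had 2.11, 2.04 and 1.86 FPKM, and since no source used here says how the authors' counting treated strand, reads of the 2 genes may not be separate.

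**Figure D2:**
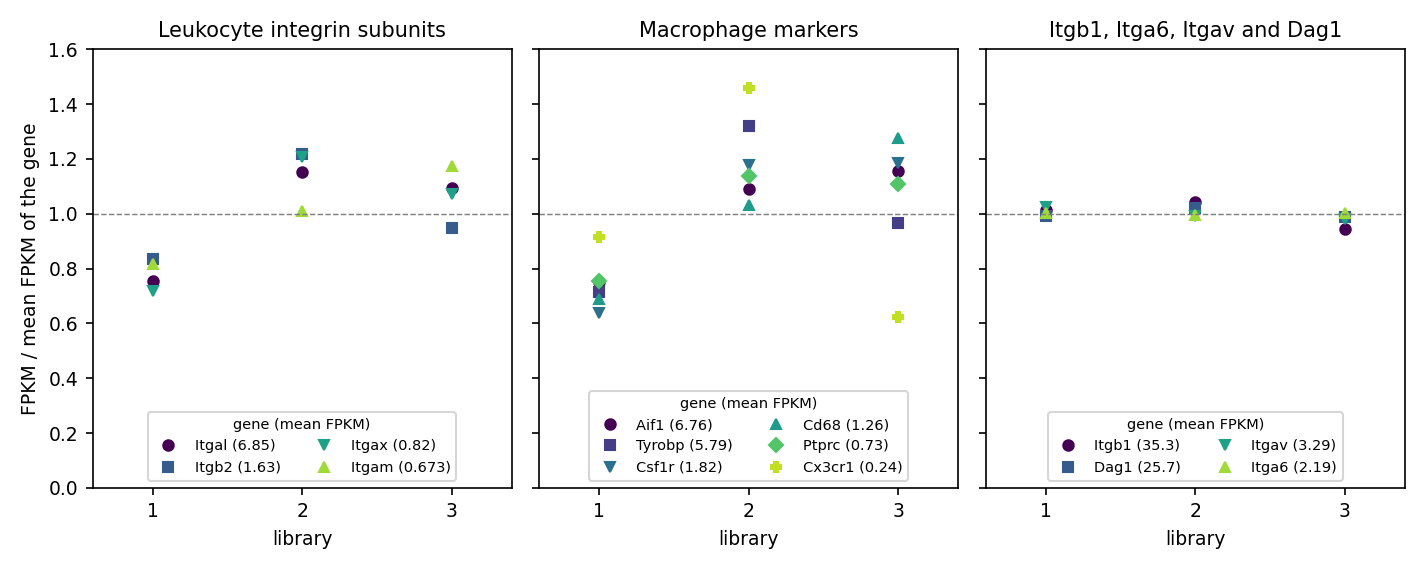
FPKM in each library divided by the gene's mean over the 3 libraries, for leukocyte integrin subunits (left), macrophage markers (middle) and Itgb1, Itga6, Itgav and Dag1 (right); the key gives the mean FPKM. The 4 leukocyte subunits drawn and 5 of the 6 markers were lowest in library 1, as were 42.9% of entries with a mean of at least 1 FPKM. Itgad, lowest in library 2, is not drawn, and the 4 genes at right stayed near 1. Not drawn either are Itgb8, Itgb5, Itga5 and Nid1, which were also lowest in library 1.

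Receptor pairs were then read from the table by taking the lower subunit of each known pair as the level of the pair. Of 24 known pairs, 5 had both subunits above 1 FPKM. Itga3 with Itgb1, a laminin receptor, was limited by Itga3 at 6.57 ± 0.896 FPKM. Itgav with Itgb1 was limited at 3.29 ± 0.0777 and Itga6 with Itgb1 at 2.19 ± 0.00577 FPKM. Itgal with Itgb2 reached 1.63 ± 0.319 and Itgav with Itgb8 1.46 ± 0.244 FPKM. The fibronectin receptor pair of Itga5 and Itgb1 was limited by Itga5 at 0.830 ± 0.190 FPKM, and Itgav with Itgb5 by Itgb5 at 0.947 ± 0.348. For each pair of Itgb1 with an alpha subunit, the alpha subunit was the lower member. RNA levels of the subunits say nothing of how much of each receptor stood at the cell surface.

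Laminin RNA was low and uneven between chains. Lamc1, the gamma chain of most laminins, had 5.29, 3.91 and 4.89 FPKM (mean 4.70 ± 0.710), and Lamb2 had 3.83, 3.31 and 3.76 FPKM (3.63 ± 0.282). Lama1, the alpha chain of the first laminin of the embryo, had 1.52, 1.28 and 1.96 FPKM, and it was the only alpha chain above 1 FPKM. Lamc1 was above Lamb2 and Lamb2 above Lama1 in every library, and all 3 genes were lowest in library 2. Lamb1 had 0.77, 0.95 and 0.80 FPKM and did not pass. Lama4, known from vessels, had 0.45, 0.45 and 0.48 FPKM. Lama5 ranged from 0.11 to 0.18, Lama2 from 0.12 to 0.17 and Lama3 from 0.09 to 0.18 FPKM, with ranges that overlapped each other. The epithelial chain Lamb3 ranged from 0.01 to 0.03 FPKM and the gamma chain Lamc3 from 0 to 0.02.

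The chains were compared with Lamc1 within each library. Lamb2 did not differ from Lamc1 past the threshold: Lamc1 exceeded it by 1.28-fold (95% interval 0.957 to 1.71, adjusted p = 0.104 by limma with Benjamini-Hochberg), but the pair differed without library 2 (adjusted p = 0.00413) and when the variances of both genes were summed (0.0252, an alternative chosen after the data were seen). Lamc1 exceeded Lama1 by 2.86-fold (2.09 to 3.92), Lamb1 by 5.08-fold (3.62 to 7.12) and Lama4 by 8.50-fold (5.94 to 12.2), in 3 of 3 libraries each. Of the 14 genes compared with Lamc1, 11 were lower, 2 were higher (Agrn and Fn1) and 1 did not pass, where 45.5% of all entries were lower and 45.6% higher, 91.1% in all. The beta chains also differed from each other: Lamb2 exceeded Lamb1 by 3.98-fold (3.22 to 4.92, adjusted p = 8.91e-06 by limma with Benjamini-Hochberg, seen in 3 of 3 libraries), and Lamb3 was lower than Lamb1. Of all entries 64.6% were higher than Lamb1 and 29.4% lower, 94.0% in all. Of 14 laminin trimers read by their lowest chain, only Lama1 with Lamb2 and Lamc1 had every chain above 1 FPKM, limited by Lama1 at 1.59 ± 0.345 FPKM. The same trimer with Lamb1 in place of Lamb2 was limited by Lamb1 at 0.840 ± 0.0964 FPKM.

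Of the partner genes, Agrn was the highest member of all. Agrn, a large heparan sulfate proteoglycan that neurons secrete and that clusters acetylcholine receptors at the muscle synapse, had 55.97, 42.84 and 60.98 FPKM (mean 53.3 ± 9.37). Dag1 had 25.45, 26.18 and 25.38 FPKM (25.7 ± 0.443) and varied least of the 4 highest genes. Fn1 had 23.01, 16.51 and 22.11 FPKM (20.5 ± 3.52). Agrn was above the other members in every library, and Agrn and Fn1 were both lowest in library 2, unlike Dag1. Nid1, which ties laminin to type IV collagen, had 2.17, 2.86 and 3.90 FPKM, and Nid2 only 0.29, 0.14 and 0.20 FPKM. Nid1 was highest in library 3 and lay below Lamc1 in every library. Lamc1 exceeded Nid1 by 1.59-fold (95% interval 1.18 to 2.13, adjusted p = 0.00244 by limma with Benjamini-Hochberg), but not past the threshold without library 1 (adjusted p = 0.210), without library 3 (0.0552), with a variance prior that was neither robust nor trended (0.139), or against a margin of 1.5-fold (0.408). Agrn exceeded Lamc1 by 11.1-fold (8.19 to 15.0) and Fn1 exceeded it by 4.29-fold (3.23 to 5.70). Within libraries the ratio of Agrn to Lamc1 was 10.4, 10.7 and 12.2 and that of Fn1 to Lamc1 4.29, 4.14 and 4.45, so these 3 genes kept nearly the same proportion while their levels differed between libraries.

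**Figure D3:**
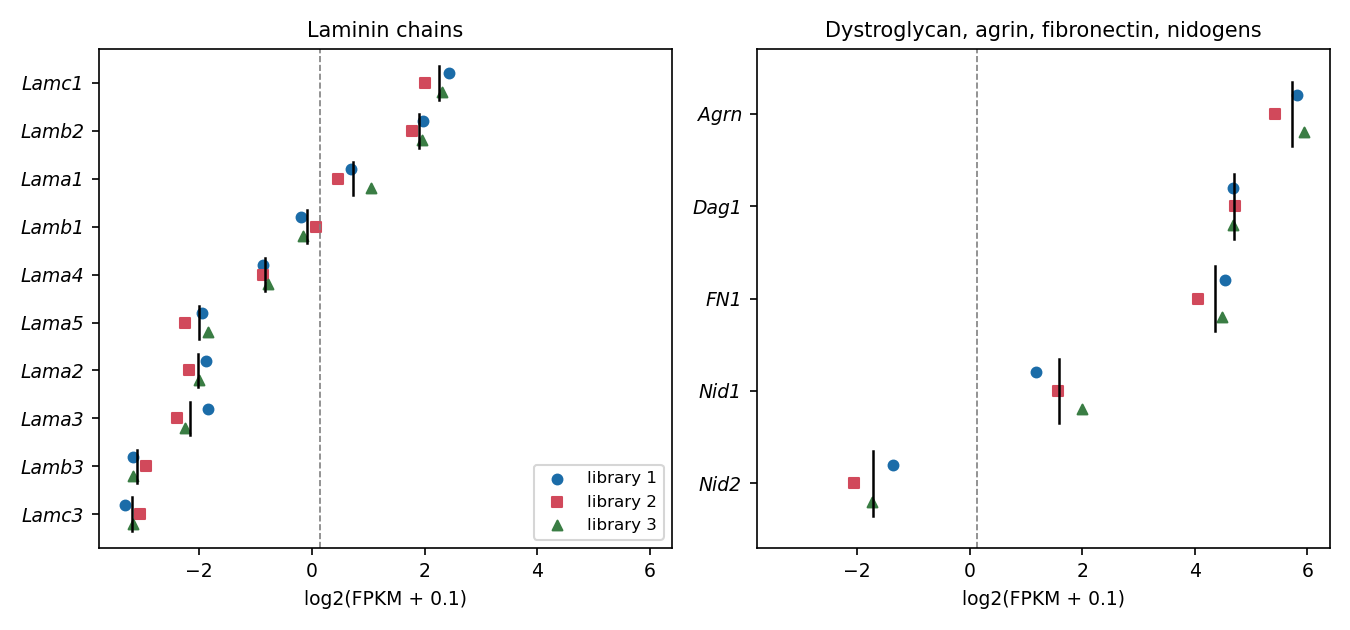
Level of 10 laminin chains (left) and of agrin, dystroglycan, fibronectin and the nidogens (right) in each library as log2(FPKM + 0.1). Points are libraries, the short vertical line is the mean, and the dashed line marks 1 FPKM; Lamc1, Lamb2 and Lama1 were the 3 laminin chains above it in the test, and Agrn, Dag1 and Fn1 lay between 16.51 and 60.98 FPKM.

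The libraries differed for some members more than for most entries. For each library, the log2 level was compared with the mean of the other 2 libraries, and the median over 11662 entries with a mean of at least 1 FPKM was subtracted. In library 2 the deviation was -0.58 for Fn1, -0.58 for Agrn, -0.53 for Lama1, -0.50 for Lamc1, -0.46 for Itga3 and -0.32 for Lamb2. The first 3 of these lay under the 5th percentile of all entries in library 2, -0.52. In libraries 1 and 3, 3 and 0 members lay under the 5th percentile of that library. Over the 95th percentile lay 2, 1 and 3 members in libraries 1 to 3. In all, 12 of the 15 members with a mean of at least 1 FPKM were below 0 in library 2, against 5 for library 1 and 2 for library 3. Of all entries as many lay below 0 as above it in each library, since their median was subtracted. The median deviation of the 15 members was 0.07, -0.14 and 0.13 in libraries 1 to 3. Robo3 and Dcc, receptors of commissural axons, were also lowest in library 2, with Robo3 at 118, 74.5 and 119 FPKM and Dcc at 68.0, 48.1 and 71.6. The other neuronal markers had no common order. Tubb3 at 944, 1037 and 900 FPKM and Stmn2 at 420, 482 and 404 FPKM were highest in library 2. Dcx was lowest in library 3, at 430.55, 419.38 and 417.95 FPKM, and Map2 in library 2, at 193.64, 190.3 and 194.46 FPKM. Itgb1 deviated by only -0.03 in library 2, Dag1 by -0.09 and Itga6 by -0.14, while Itgb2 deviated by 0.30 and Itgal by 0.21. In library 1 the lowest members were Nid1 at -0.53 and Itgal at -0.50, and in library 3 the highest was Nid1 at 0.67. What these members share between libraries beyond this order was not tested.

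**Figure D4:**
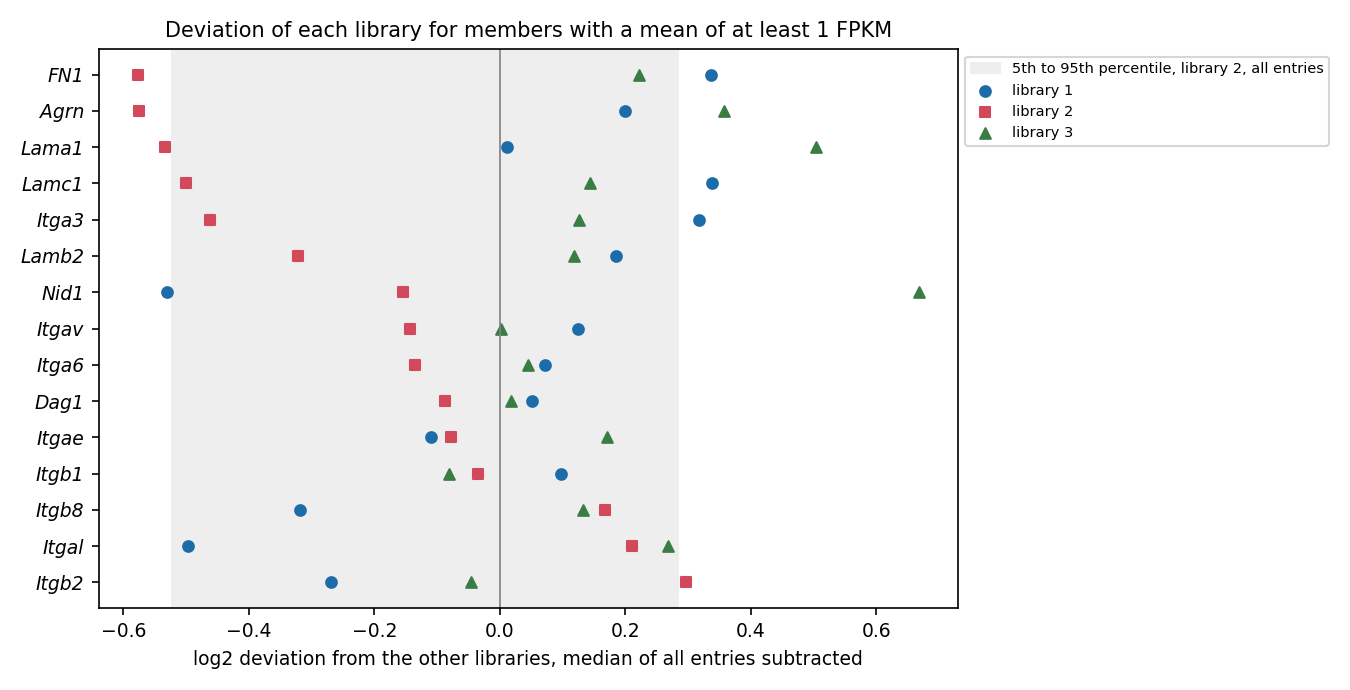
Log2 deviation of each library from the mean of the other libraries for the 15 members with a mean of at least 1 FPKM, after subtraction of the median of all entries. The grey band spans the 5th to 95th percentile of all entries in library 2; Fn1, Agrn and Lama1 fall below it in library 2, and Itgb1, Dag1, Itga6 and Itgav stay between -0.14 and 0.12 in every library.

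Promoters of the members were read next, as the one sequence feature available for most of them. RefSeq sequences of build GRCr8 were matched for 30 of the 42 genes, and the 250 bases before the annotated start were searched for CG, which reads the same on both strands. CpG-rich promoters are typical of genes that many cell types use, and CpG-poor promoters of genes restricted to few. The 4 sequences shown are examples chosen after their values were seen, 2 CpG-rich and 2 CpG-poor: Itgb1 (chr19:73602027-73602276, plus strand) and Itga3 (chr10:80518902-80519151, minus strand), both above 1 FPKM, and the leukocyte subunits Itgam (chr1:192089342-192089591, plus strand) and Itgb7 (chr7:135239072-135239321, minus strand), both not. Each is written 5′ to 3′ on the strand of its gene, with every CpG in capitals.
Itgb1: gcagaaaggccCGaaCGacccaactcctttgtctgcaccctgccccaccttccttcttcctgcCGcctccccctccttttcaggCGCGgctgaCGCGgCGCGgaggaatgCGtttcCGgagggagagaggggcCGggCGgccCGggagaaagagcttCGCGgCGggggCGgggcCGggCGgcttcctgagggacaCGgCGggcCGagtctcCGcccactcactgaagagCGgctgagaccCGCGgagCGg
Itga3: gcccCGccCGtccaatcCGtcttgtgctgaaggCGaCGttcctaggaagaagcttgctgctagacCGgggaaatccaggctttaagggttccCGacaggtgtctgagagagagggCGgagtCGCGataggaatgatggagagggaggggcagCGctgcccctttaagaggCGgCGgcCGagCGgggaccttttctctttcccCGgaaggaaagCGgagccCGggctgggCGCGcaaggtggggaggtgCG
Itgam: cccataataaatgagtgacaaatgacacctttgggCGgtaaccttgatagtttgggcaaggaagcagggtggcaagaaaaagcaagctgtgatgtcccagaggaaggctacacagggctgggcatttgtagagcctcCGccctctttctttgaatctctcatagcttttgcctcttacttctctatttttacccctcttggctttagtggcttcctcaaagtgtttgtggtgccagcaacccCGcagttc
Itgb7: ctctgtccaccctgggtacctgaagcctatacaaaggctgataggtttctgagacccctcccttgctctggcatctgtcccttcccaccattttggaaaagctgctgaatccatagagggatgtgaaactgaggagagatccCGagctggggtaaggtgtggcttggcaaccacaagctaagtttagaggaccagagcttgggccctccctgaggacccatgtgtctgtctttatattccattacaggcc
These windows held 28, 21, 3 and 1 CpG. Of 33469 promoters of the same length in the RefSeq table, 16.7% held at least 20 CpG and 37.4% at most 3, with a median of 5.

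CpG counts were set beside levels, for the members and for other genes, with no test of a difference between them. The 9 matched members with a mean of at least 1 FPKM had a median of 17 CpG and the 21 others a median of 8. Dag1, Fn1, Itgal, Itga6, Itgb2 and Lamb2 also had a mean of at least 1 FPKM but no matched sequence, and they are not in these medians. Among 8247 other genes with a mean of at least 1 FPKM the median was also 17, and among 4698 below it was 5. Spearman's rho between CpG count and mean FPKM was 0.50 over the 30 members and 0.52 over all 12975 genes matched, points that share the libraries and their base composition. Exceptions among the members lay on both sides: Agrn, the highest gene, had 9 CpG, Itgae 4 and Lama1 6, while Itgb5 had 33 at 0.947 FPKM and Lama5 20 at 0.150 FPKM. Whether these windows are the starts used in commissural neurons is not known, and a start used elsewhere would not be seen.

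**Figure D5:**
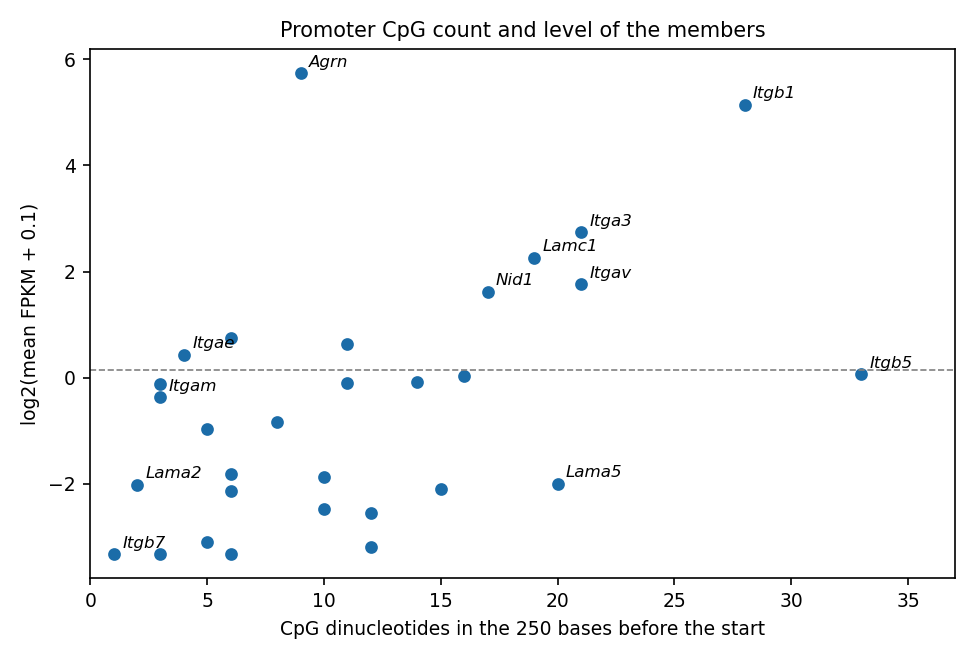
CpG count in the 250 bases before the annotated start (x axis) against log2(mean FPKM + 0.1) for the 30 members with a RefSeq promoter sequence. The dashed line marks 1 FPKM; Itgb1 with 28 CpG is high in both, Agrn is high with 9, and Itgb5 with 33 lies just below the line.

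The proteins that work with these receptors and ligands were counted in the same fit. Of 150 matched genes of the adhesion pathway, 101 lay above 1 FPKM, with a median level of 4.63 FPKM beside 4.81 over all entries tested. The share above 1 FPKM over the entries tested, 63.7%, is the background for this count and for each list that follows. Entries at 0 in every library are left out of that share, and no list was tested against it. The switch that activates integrins from inside the cell was above 1 FPKM in 10 of 13 genes: Rap1b, the small GTPase that recruits talin, had 72.6 ± 5.09 FPKM, the actin crosslinker Flna 36.7 ± 5.81 and the kindlin Fermt2 20.8 ± 1.73, while the epithelial kindlin Fermt1 was lowest at 0.0133 ± 0.00577. The link from integrins to actin passed in 11 of 16 genes, led by Ilk at 44.1 ± 1.95, Actn4 at 33.1 ± 1.28 and Zyx at 20.1 ± 1.70 FPKM, with Lims2 lowest at 0.210 ± 0.0755. Kinases and adaptors of focal adhesions passed in 14 of 15 genes. Fyn had 121 ± 8.0, Arhgef7 46.7 ± 0.815 and Git1 41.8 ± 1.98 FPKM, and only Ptk2b, the relative of focal adhesion kinase, did not pass, at 0.443 ± 0.146. Tetraspanins and other membrane partners passed in 9 of 10 genes, with Tspan3 at 166 ± 17.0, Bsg at 134 ± 14.0 and Tspan7 at 112 ± 9.77 FPKM. Cd151, the tetraspanin that binds the laminin receptors of Itga3 and Itga6, was lowest at 1.17 ± 0.0577 and did not pass, though it did with a variance prior that was neither robust nor trended.

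Dystroglycan needs a special sugar chain to bind laminin and agrin, and 15 of the 16 matched genes for making it lay above 1 FPKM. Dpm2 had 58.0 ± 5.58 and Dpm3 28.5 ± 2.27 FPKM, while Large2 was lowest at 0.993 ± 0.0850. Of the dystrophin complex, which ties dystroglycan to the cytoskeleton, 7 of 12 genes passed. Dtna had 18.5 ± 1.71, Sgce 13.3 ± 1.79 and Sgcb 7.86 ± 0.295 FPKM, and the muscle sarcoglycan Sgca was lowest, at 0.02 FPKM in library 1 and 0 in the others. The agrin receptor Lrp4 had 11.8 ± 1.06 FPKM, and Musk, its partner kinase at the muscle synapse, was listed at 0 in every library. These belong to a list of 9 other receptors for agrin and laminin of which 6 passed; Rpsa, better known as a ribosomal protein, had 753 ± 92.9 and the syndecan Sdc3 45.9 ± 2.67 FPKM.

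The other matrix genes were counted by list. Of 14 genes of basement membranes 6 passed, with a median of 0.838 FPKM. Sparc had 34.1 ± 2.73, Smoc1 5.25 ± 0.778 and the type IV collagen Col4a1 3.53 ± 0.161 FPKM, and Col4a3 was listed at 0. Of 31 other integrin ligands 12 passed, with a median of 1.04 FPKM. Edil3, an RGD protein that Itgav integrins bind, had 124.45 FPKM in library 1 against 36.58 and 33.97 in libraries 2 and 3. Ccn2 had 12.7 ± 1.69 and Thbs1 9.85 ± 1.40 FPKM, and the tenascin Tnn was lowest at 0.0267 ± 0.0208. Of 15 matrix proteases and their partners 12 passed, with a median of 9.48 FPKM, led by Bsg again, Mmp24 at 54.6 ± 5.08 and Adam10 at 30.3 ± 0.192 FPKM, and Adamts1 lowest at 0.387 ± 0.0874. Markers of cells that build basement membranes elsewhere were low: 0 of 5 endothelial markers passed in limma's test, with summed levels of 0.45, 0.53 and 0.40 FPKM, and 1 of 6 fibroblast and mural markers did, Col3a1 at 2.27 ± 0.512, while Dcn was listed at 0. Of 3 floor plate markers Spon1 passed, at 1.37 ± 0.208 FPKM, and Foxa2 was listed at 0. Of 3 Schwann cell markers 1 passed, with Sox10 at 0, 0.03 and 0 FPKM. The part of these cell types, and of the neural progenitors whose 6 markers all lay above 1 FPKM, in the levels of the laminins was not tested.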

How the data were processed

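Polyadenylated RNA of 3 libraries was sequenced with paired reads of 50 bp from stranded libraries, per the labels. FastQC, Trimmomatic 0.22, STAR and genome build rn6 are named in the submitters' processing notes; no source used here names the tool that computed FPKM, its annotation or its use of strand. A single table of the authors' FPKM was used as deposited, as log2(FPKM + 0.1). limma 3.58.1 in R 4.3.3 (statmod 1.5.0) tested all 17611 entries above 0 in a library against 1 FPKM, one-sided, and the ratio of each entry to 6 reference genes (Itgb1, Itgav, Itga6, Itga5, Lamc1, Lamb1), two-sided, with a robust, trended prior and Benjamini-Hochberg adjustment over all entries at 0.05. The noise of a reference gene is shared by all ratios to it. For Itga5 and Lamc1 the prior had infinite degrees of freedom. The error of a typical ratio to them thus came from the trend over all entries, not from its own 3 values. For this reason very small p-values are not printed. A two-sided exact sign-flip test on 3 libraries cannot go below p = 0.25. On simulated data (17611 entries), 48 of 50 genes at 2 FPKM, 50 of 50 at 1.5, 18 of 50 at 1.2 and 1 of 50 at exactly 1 FPKM were called; for ratios to Itgb1 (17610 entries), 49 of 50 at 2-fold, 50 of 50 at 1.5-fold, 41 of 50 at 1.2-fold and 3 of 50 with no difference were. No library was a copy of another: 0.360% to 0.557% of values were identical between libraries among 11662 entries.

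Every member is accounted for, and of each list the 3 highest genes and the lowest are named (all of short lists; a few others are named as partners), except that 1 laminin chain and 2 list genes are counted but not reported here by name. The family and the lists were picked as subjects with earlier results of these data known, although the rule for members uses symbols alone. Of 190 list genes, 8 were matched by an older symbol and 1 was not matched; for 3 with several entries the highest was taken. Alternatives were other pseudocounts, scalings, filters, levels and priors, a 1.5-fold margin and each library left out; after seeing the data, summed variances of both genes were tried as well. Python 3.11.15 with pandas 2.3.3 prepared the tables, and matplotlib 3.10.9 the plots.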

Additional observations from a re-analysis of the deposited data

How the results depend on the processing

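The 15 members above 1 FPKM were counted again under other pseudocounts, scalings, filters, priors and levels, and with each library left out. The count fell to 6 at a level of 5 FPKM, where the 101 pathway genes fell to 67, and stayed within 1.5 times of 15 otherwise; no called result reversed its direction. The values that changed sign were near no difference and passed in no setting that kept the level at 1 FPKM. Itgb5 against 1 FPKM went from -0.12 to 0.07 (log2) without library 1, and Itga9 from -0.12 to 0.03 without library 3. Itga9 over Itga5 went from 0.15 to -0.06 without library 1. The 2 genes compared with Lamb1 became 1 when entries needed a mean of at least 0.1 FPKM, since Lamb3 was then not tested. At 5 FPKM, alpha subunits fell from 5 to 2, beta subunits from 3 to 1 and laminin chains from 3 to 0, and the dystrophin, basement membrane, other ligand and other receptor lists to 4, 1, 3 and 3. At 0.5 FPKM alpha subunits rose to 9 and other ligands to 22. Single genes whose call depended on a setting are given with their values in the results. No paired analysis was possible because all libraries form 1 group. FPKM gives no depth, so levels near 0 cannot be told from 0.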
